A study of Mus musculus with 18 samples.

Results

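The monocyte chemoattractants and their receptor were followed through 4 genes in cultured mouse microglia: the ligand genes Ccl2, Ccl7 and Ccl12 and the receptor gene Ccr2. They are the 4 rows of a count table of 54532 genes that carry these gene names. They were chosen by measured values, as the chemokine genes with the strongest response to the Akt inhibitor MK-2206 in these libraries. Every comparison that holds an MK-2206 library is therefore given as a description, without a test. The cells were primary microglia from pups of postnatal day 0 to 3, kept in mixed culture for 10 days before isolation. The 6 groups of 3 libraries were R47H/+ cells with MK-2206 and tau, R47H/+ cells with MK-2206, R47H/+ cells with tau, R47H/+ cells, Trem2+/+ cells with tau and Trem2+/+ cells. The labels write the genotypes as hTrem2 R47H/+ and mTrem2 +/+, so the first carries 1 allele with the R47H form of TREM2, a lipid-sensing surface receptor of microglia. MK-2206 was given at 1 uM, and 0.01% DMSO was its control, both as a pre-treatment of 6 h. Tau was added afterwards as 0N4R fibrils at 1 ug per ml, and the length of this exposure is not stated. MK-2206 was not given to Trem2+/+ cells in the libraries used here, so its effect was measured in R47H/+ cells only. Whether the 3 replicates of a group came from different cultures or litters is not said in the labels, and the p-values rest on the spread among them, part or all of which may be technical.

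CCL2, CCL7 and CCL12 are small secreted proteins of the CC family, named for a pair of adjacent cysteines near the start of the mature protein. In the mouse they act on CCR2, a receptor coupled to inhibitory G proteins that draws classical monocytes out of the bone marrow and towards inflamed tissue, the brain included. Activated microglia and astrocytes are known sources of CCL2, and transcription of its gene is driven in many cells by NF-kB and interferon signalling.

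The 3 ligand genes lie in 1 cluster on the plus strand of chromosome 11 (GRCm38), with Ccl11 between Ccl7 and Ccl12, and are protein-coding genes of 3 exons in their first annotated transcript. Ccl2 (ENSMUSG00000035385) spans chr11:82035571-82037453, Ccl7 (ENSMUSG00000035373) spans chr11:82045712-82047525 and Ccl12 (ENSMUSG00000035352) spans chr11:82101845-82103400. Ccr2 (ENSMUSG00000049103) is on the plus strand of chromosome 9, at chr9:124101950-124113557. The coding stretches around the adjacent cysteines are shown because they mark what the ligands share and how far their transcripts differ. Each is 60 bases of coding sequence read across the junction of exon 1 and exon 2, from GENCODE M21 on GRCm38, with the adjacent cysteine codons in capitals.
Ccl2: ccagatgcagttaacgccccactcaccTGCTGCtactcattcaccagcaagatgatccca
Ccl7: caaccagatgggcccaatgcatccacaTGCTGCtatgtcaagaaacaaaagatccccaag
Ccl12: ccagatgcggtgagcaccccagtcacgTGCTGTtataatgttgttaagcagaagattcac
These stretches run from chr11:82035734-82036538 in Ccl2, from chr11:82045853-82046570 in Ccl7 and from chr11:82101969-82102666 in Ccl12, introns included. Aligned without gaps, Ccl2 and Ccl12 carried the same base at 37 of 60 positions, Ccl2 and Ccl7 at 25 and Ccl7 and Ccl12 at 25. Bases shared at a shifted position, as in Ccl7 ahead of the cysteines, count as different here, so an alignment with gaps could match more. Of all 31-base words in their annotated transcripts, 0 of 1138 in Ccl2, 0 of 771 in Ccl7 and 0 of 534 in Ccl12 occurred in the transcripts of another gene, on either strand. Ccr2 shared 235 of 6745 words (3.48%) with other genes, and its longest shared run was 152 bases. How the authors treated reads that fit more than 1 gene is not stated, so the split of reads within the shared words is uncertain. Whether counting used the strand is not stated either. RefSeq promoter windows (GRCm38.p6) were matched for Ccl12 and Ccr2. The windows are the 250 bases before the RefSeq start. For Ccl12 this start is that of the count table, while for Ccr2 it lies further along, so 233 of the 250 bases fall within the gene as located above. In these 2 windows there was no match on either strand to the NF-kB motif (GGGA, any 4 bases, then CC), AP-1 (TGANTCA), the interferon response element (GAAA, any 2 bases, then GAAA), the gamma-activated sequence (TTCNNNGAA) or the forkhead motif (TGTTTAC). Of 32851 promoter windows of that length, 17.6%, 6.75%, 2.98%, 7.02% and 3.17% held these motifs in that order, which says only that these letters were absent from both windows.

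The libraries held 16288531 to 20686299 counts, and 13267 genes passed the count filter, all 4 genes of the set among them. Values are CPM, counts scaled to the size of their library with TMM factors. In Trem2+/+ replicate 3 and R47H/+ with tau replicate 2, counts leaned towards short genes, with slopes against gene length (log2 CPM for each 10-fold) of -1.39 and -0.73. Results that change when both are left out are given both ways. Without tau, Trem2 lay at 451.2 to 489.1 CPM in R47H/+ libraries, against 935.0 to 1894 CPM in Trem2+/+ libraries, and with tau at 128.2 to 243.0 CPM, against 375.3 to 480.7 CPM. With MK-2206 it lay at 153.8 to 183.4 CPM with tau and at 502.7 to 551.4 CPM without. These counts do not tell the alleles apart. The labels write the R47H allele as hTrem2, while reads were counted on the mouse genome (GRCm38). How far reads of that allele were counted is not known, so these values do not give the total Trem2 RNA of R47H/+ cells. The 10 microglia markers, 9 of them tested, summed to 2721 to 3020 CPM in R47H/+ cells with tau and 3684 to 3787 CPM in R47H/+ cells without, and to 3242 to 3357 CPM in Trem2+/+ cells with tau and 2431 to 3142 CPM without. With tau 1 was called higher and 5 lower in R47H/+ cells, where 27.6% of all genes were called. In Trem2+/+ cells 2 were called higher and 3 lower with tau, where 26.5% of all genes were called. Without tau 6 were called higher and 0 lower in R47H/+ than in Trem2+/+ cells, where 15.1% of all genes were called. With MK-2206 the microglia markers summed to 3560 to 3622 CPM with tau and 2971 to 3158 CPM without.

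Markers of cells that could themselves carry Ccr2 moved with tau. The 10 monocyte markers summed to 885.3 to 924.0 CPM in R47H/+ cells with MK-2206 and tau, 680.9 to 896.5 CPM in R47H/+ cells with tau and 1091 to 1208 CPM in Trem2+/+ cells with tau. Without tau they summed to 248.2 to 324.8 CPM with MK-2206, 403.9 to 417.7 CPM in R47H/+ cells and 353.6 to 577.0 CPM in Trem2+/+ cells. Ly6c2, a surface protein of classical monocytes that interferon also induces, averaged 177.4 ± 33.8 CPM in R47H/+ cells with tau and 12.3 ± 4.27 CPM without (SD, n = 3 each), and 145.7 ± 9.79 CPM in Trem2+/+ cells with tau and 4.66 ± 3.22 CPM without (SD, n = 3 each). Plac8 was at 0 counts in all Trem2+/+ libraries and all R47H/+ libraries with MK-2206, both without tau, and at 0.171 CPM or less elsewhere. Of 7 granulocyte markers, S100a9, Ly6g and Retnlg were at 0 counts in every library. The 2 tested, S100a8 and Camp, were both called higher with tau in R47H/+ cells, where 15.0% of all genes were called higher. S100a8 averaged 7.61 ± 3.94 CPM in R47H/+ cells with tau and 1.78 ± 0.0783 CPM without (SD, n = 3 each), and 13.03 ± 1.07 CPM in Trem2+/+ cells with tau and 6.59 ± 5.89 CPM without (SD, n = 3 each). The 9 astrocyte markers, 6 of them tested, summed to 78.5 to 103.0 CPM in R47H/+ cells with tau and 66.3 to 69.5 CPM without, and to 93.8 to 106.6 CPM with MK-2206 and tau and 54.7 to 70.8 CPM with MK-2206 alone. In both of these pairs the sums of the libraries with tau lay above those without, as the ligands did. The median log2 difference of the 6 tested was 0.52 with tau in R47H/+ cells but -0.11 with tau under MK-2206. Between the genotypes without tau, 1 was called higher and 3 lower in R47H/+ cells, with a median of -1.47, while the ligands were higher. In that comparison 8.22% of all genes were called higher and 6.83% lower. With tau in R47H/+ cells 2 markers were called higher and 1 lower, where 15.0% of all genes were called higher and 12.6% lower. In Trem2+/+ cells the astrocyte markers summed to 92.3 to 101.9 CPM with tau and 61.0 to 106.1 CPM without, which overlapped. The fibroblast and vascular markers summed to 1.89 to 4.17 CPM in all libraries. The 5 border macrophage markers summed to 351.3 to 410.5 CPM in R47H/+ cells with tau and 608.8 to 682.8 CPM without, and to 540.5 to 566.3 CPM in Trem2+/+ cells with tau and 755.3 to 1303 CPM without, with Lyve1 at 0 counts in 17 of the 18 libraries. The part of these cells in the results below was not tested. In bulk RNA, more cells of a type and more RNA per cell cannot be told apart.

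The values that chose the set were the differences between R47H/+ cells with and without MK-2206. Among 33 tested chemokine and chemokine receptor genes, Ccl7 was lowest with MK-2206 and Ccl2 came next, both without and with tau. Ccl7 differed by -4.45 without tau and -2.78 with tau on the log2 scale, and Ccl2 by -3.69 and -2.19. Ccl12 was in place 4 without tau (-2.29), behind the receptor gene Cxcr5 (-2.80), and in place 3 with tau (-1.79). Cxcl11, a ligand of CXCR3, was in place 8 without tau (-1.12) and in place 4 with tau (-1.55). The receptor gene Ccr3 was in place 7 (-1.25) and in place 6 (-1.15). Ccl8, the neighbour of Ccl12, was in place 16 without tau (-0.70) and in place 5 with tau (-1.28). Ccr2 was in place 6 without tau (-1.42) and in place 28 with tau (0.19), so the label of a strongly inhibitor-sensitive gene held for it only without tau.

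**Figure D1:**
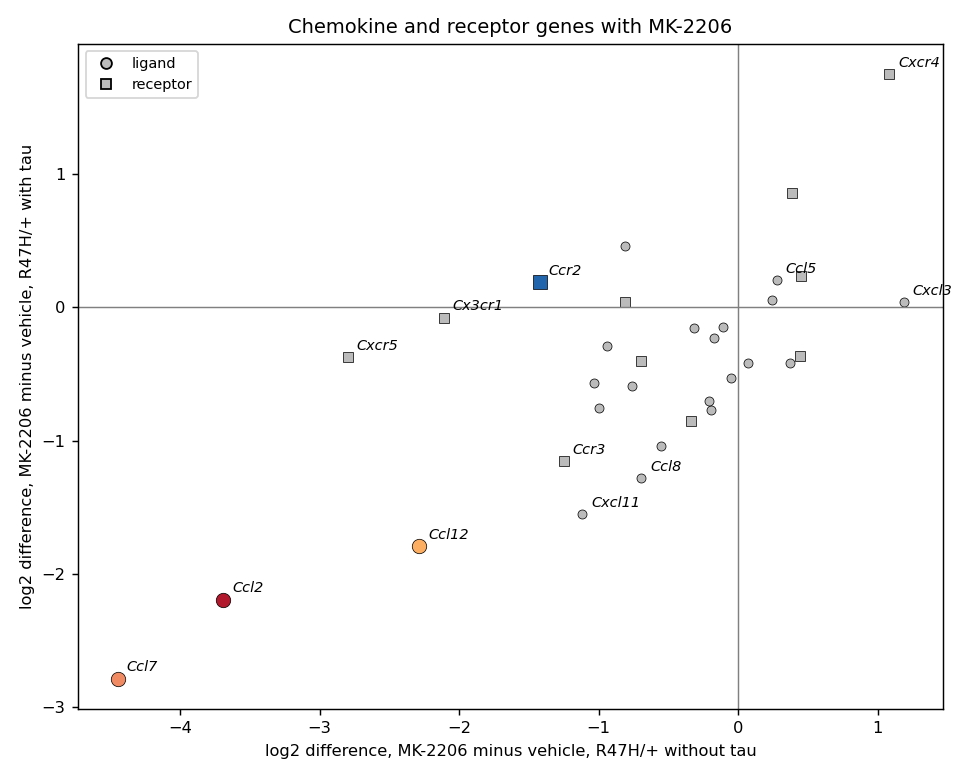
Log2 difference between R47H/+ cells with MK-2206 and R47H/+ cells with vehicle for 33 chemokine ligand genes (circles) and receptor genes (squares), without tau on the x axis and with tau on the y axis. Ccl7, Ccl2 and Ccl12 sit at the lower left, with Ccl7 at -4.45 and -2.78, while Ccr2 sits at -1.42 and 0.19.

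Each ligand was higher in R47H/+ than in Trem2+/+ cells and higher with tau than without, and Ccr2 followed another pattern. The comparisons below come from edgeR's quasi-likelihood test over all 13267 genes with Benjamini-Hochberg adjustment, and a gene is called at an adjusted p under 0.05. All 4 genes were called higher in R47H/+ than in Trem2+/+ cells without tau, where 15.1% of all genes were called and 8.22% were called higher. All 4 were called higher with tau in Trem2+/+ cells, where 26.5% of all genes were called and 14.4% were called higher. With tau in R47H/+ cells, the 3 ligands were called higher and Ccr2 lower, where 27.6% of all genes were called, 15.0% higher and 12.6% lower. With tau present, the 3 ligands were called higher in R47H/+ than in Trem2+/+ cells and Ccr2 was not called, where 9.50% of all genes were called and 5.25% were called higher. The difference of the tau effects between the genotypes was called for 1 of the 4, Ccr2, with the lower value in R47H/+ cells, where 5.37% of all genes were called and 3.32% were called lower. The R47H/+ libraries of these comparisons also stand in the inhibitor comparisons that chose the genes. Tau in Trem2+/+ cells is the comparison that shares no library with them. Choosing genes that were lower with MK-2206 favours high values in these R47H/+ libraries. The p-values of the comparisons that hold R47H/+ libraries are therefore not independent of the choice.

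Ccl2 encodes the main CCR2 ligand. It measured 262.9, 351.2 and 272.6 CPM in R47H/+ cells with tau and 24.5, 14.9 and 12.9 CPM in R47H/+ cells without tau. The Trem2+/+ cells had 49.4, 59.6 and 59.1 CPM with tau and 2.70, 3.21 and 4.66 CPM without. Every library of these 4 groups stood apart from those of the other 3, with R47H/+ with tau on top and Trem2+/+ at the bottom. Without tau, Ccl2 averaged 17.4 ± 6.20 CPM in R47H/+ and 3.52 ± 1.01 CPM in Trem2+/+ cells (SD, n = 3 each), a log2 difference of 2.32 (SE 0.254, edgeR adjusted p = 8.69e-06). With tau it averaged 295.6 ± 48.4 CPM in R47H/+ and 56.0 ± 5.78 CPM in Trem2+/+ cells (SD, n = 3 each), a difference of 2.40 (SE 0.226, edgeR adjusted p = 1.30e-05). Tau raised it by 4.08 in R47H/+ cells (SE 0.230, edgeR adjusted p = 1.26e-08) and by 4.0 in Trem2+/+ cells (SE 0.251, edgeR adjusted p = 1.11e-08). The 2 tau effects differed by 0.08, with a 95% interval of -0.64 to 0.80, and the difference was not called (edgeR adjusted p = 0.897).

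Ccl7 encodes a broader ligand that also binds other CC receptors. It measured 259.1, 369.3 and 233.8 CPM in R47H/+ cells with tau and 14.9, 8.65 and 6.37 CPM in R47H/+ cells without. Trem2+/+ cells had 31.1, 40.0 and 43.3 CPM with tau and 0.624, 1.10 and 2.16 CPM without, the last from 12, 24 and 32 counts. The groups again did not overlap, and the lowest group held few counts. Ccl7 was higher in R47H/+ than in Trem2+/+ cells by 2.99 on the log2 scale without tau (SE 0.383, edgeR adjusted p = 3.41e-05) and by 2.91 with tau (SE 0.294, edgeR adjusted p = 2.92e-05). Tau raised it by 4.85 in R47H/+ cells (SE 0.303, edgeR adjusted p = 4.59e-08) and by 4.93 in Trem2+/+ cells (SE 0.376, edgeR adjusted p = 6.00e-08). The difference of the tau effects was -0.08, with a 95% interval of -1.10 to 0.95 (edgeR adjusted p = 0.921).

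Ccl12 encodes a mouse chemokine close to CCL2 that acts on CCR2. It measured 269.6, 409.3 and 242.5 CPM in R47H/+ cells with tau and 22.4, 13.9 and 14.6 CPM in R47H/+ cells without. Trem2+/+ cells had 44.6, 56.7 and 62.8 CPM with tau and 0.572, 2.29 and 5.20 CPM without, from 11, 50 and 77 counts. Its Trem2+/+ libraries without tau spread widely, and the 4 groups still did not overlap. Ccl12 was higher in R47H/+ than in Trem2+/+ cells by 2.71 without tau (SE 0.445, edgeR adjusted p = 0.000606) and by 2.49 with tau (SE 0.385, edgeR adjusted p = 0.000972). Tau raised it by 4.18 in R47H/+ cells (SE 0.391, edgeR adjusted p = 2.48e-06) and by 4.39 in Trem2+/+ cells (SE 0.440, edgeR adjusted p = 2.58e-06). Without Trem2+/+ replicate 3, a library with high short genes, the difference without tau was 3.50 and the tau effect in Trem2+/+ cells was 5.18. The call between the genotypes without tau was lost when only these 2 groups were fitted (2.65, adjusted p = 0.11). The difference of the tau effects was -0.22, with a 95% interval of -1.47 to 1.03 (edgeR adjusted p = 0.823). Without both length-shifted libraries it was -1.29 and called (adjusted p = 0.0371).

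**Figure D2:**
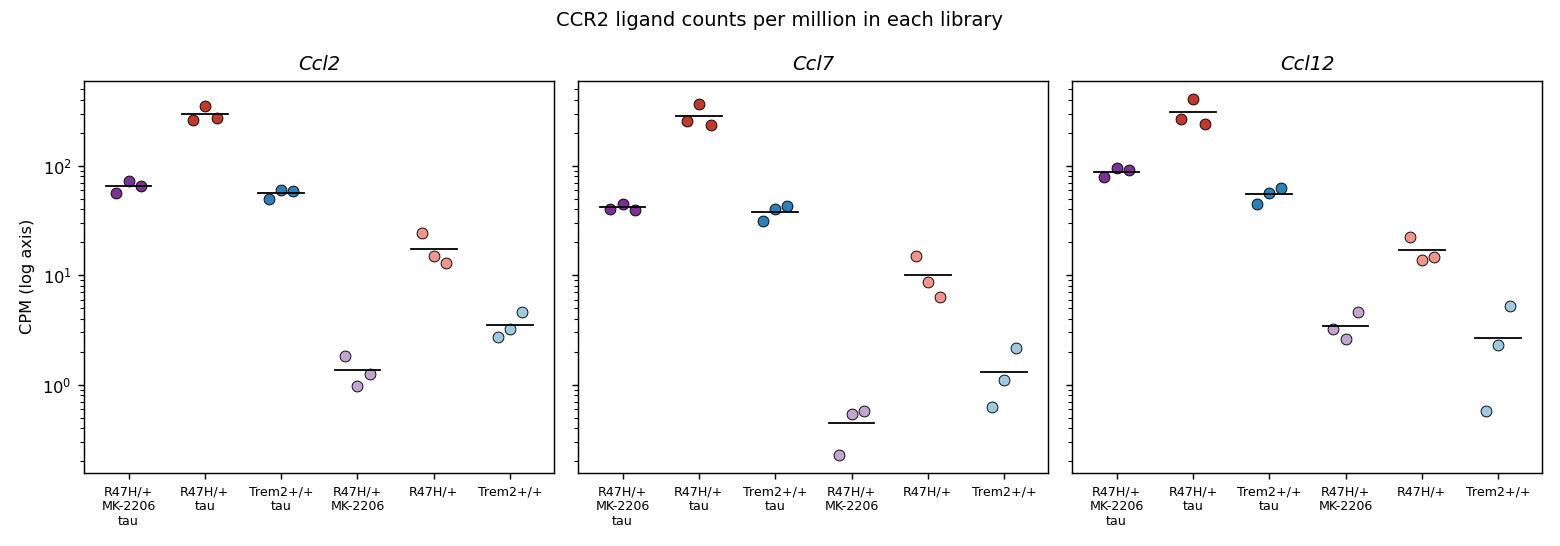
CPM on a log axis for Ccl2, Ccl7 and Ccl12 in each of 18 libraries by group, with a bar at the mean of 3 libraries. For each ligand R47H/+ cells with tau are highest, at 262.9 to 351.2 CPM for Ccl2, and the groups without tau lie below all groups with tau.

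The 3 ligands kept nearly the same order of groups. R47H/+ cells with tau came first for each, then R47H/+ cells with MK-2206 and tau, Trem2+/+ cells with tau and R47H/+ cells. For Ccl2 and Ccl7, Trem2+/+ cells came next and R47H/+ cells with MK-2206 last, and for Ccl12 those places were exchanged. Neighbours in this order overlapped between R47H/+ cells with MK-2206 and tau and Trem2+/+ cells with tau for Ccl2 and Ccl7, and between R47H/+ cells with MK-2206 and Trem2+/+ cells for Ccl12. All other neighbours stood apart. Summed, the 3 ligands took 890.1 ± 208.7 CPM in R47H/+ cells with tau and 44.3 ± 15.2 CPM in R47H/+ cells without (SD, n = 3 each), and 148.9 ± 21.05 CPM in Trem2+/+ cells with tau and 7.505 ± 4.132 CPM without (SD, n = 3 each).

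The proportions of the ligands were not the same in all groups. Compared per length, Ccl7 stood at 1.37 ± 0.140 times the level of Ccl2 in R47H/+ cells with tau and 0.797 ± 0.0850 times in R47H/+ cells without tau (SD, n = 3 each). The ratios were 0.963 ± 0.0724 in Trem2+/+ cells with tau and 0.491 ± 0.166 in Trem2+/+ cells without (SD, n = 3 each). In both genotypes each library with tau lay above each library without it. Per length, all 3 libraries of R47H/+ cells with tau had more Ccl7 than Ccl2. In CPM this held for replicate 2 only (369.3 against 351.2 CPM), with 259.1 against 262.9 CPM in replicate 1 and 233.8 against 272.6 CPM in replicate 3. The order thus rests on the gene lengths of the count table, 801 bases for Ccl7 and 1138 for Ccl2. Ccl12 per length stood at 2.18 ± 0.292 times Ccl2 in R47H/+ cells with tau, 2.10 ± 0.252 times in R47H/+ cells, 2.06 ± 0.171 times in Trem2+/+ cells with tau and 1.44 ± 0.960 times in Trem2+/+ cells (SD, n = 3 each). Those 4 groups overlapped, and the Trem2+/+ libraries without tau ran from 0.448 to 2.36. The 2.36 came from replicate 3, whose counts leaned towards short genes. R47H/+ with tau replicate 2, the other such library, had the highest ratios of its group (1.49 for Ccl7 and 2.47 for Ccl12). Without both, Ccl12 stood at 0.448 and 1.51 times Ccl2 in Trem2+/+ cells, below each library of the other groups (lowest 1.89). Ccl7 then stood at 1.40 and 1.22 in R47H/+ cells with tau. The part of this lean in the ratios was not tested. With MK-2206 the ratio of Ccl12 to Ccl2 was 3.71, 5.65 and 7.86 in the libraries without tau and 2.95, 2.81 and 2.97 in those with tau, all above the R47H/+ libraries without the inhibitor. None of these ratios was tested, and those of the groups with MK-2206 follow from the differences that chose the set.

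**Figure D3:**
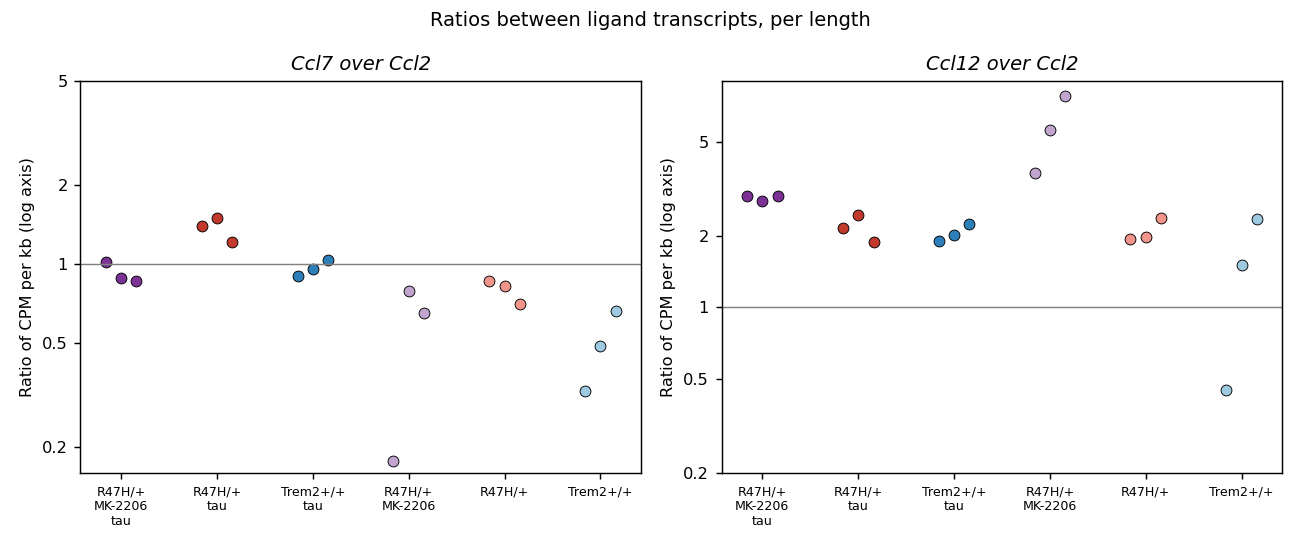
Ratios of CPM per kb, on log axes, of Ccl7 to Ccl2 and of Ccl12 to Ccl2 in each of 18 libraries by group, with a line at equal levels. Per length, Ccl7 exceeds Ccl2 in all 3 R47H/+ libraries with tau (1.22 to 1.49), and the ratio of Ccl12 to Ccl2 is highest in R47H/+ cells with MK-2206 (3.71 to 7.86).

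Ccr2 encodes the receptor for all 3 ligands. It measured 20.02, 17.8 and 12.9 CPM in R47H/+ cells with tau and 25.6, 27.4 and 21.6 CPM in R47H/+ cells without tau. Trem2+/+ cells had 22.4, 21.6 and 27.3 CPM with tau and 11.2, 10.4 and 8.98 CPM without. With tau the Trem2+/+ libraries overlapped the R47H/+ libraries without tau, and Trem2+/+ libraries without tau were the lowest of these 4 groups. Without tau it averaged 24.9 ± 2.97 CPM in R47H/+ and 10.2 ± 1.13 CPM in Trem2+/+ cells (SD, n = 3 each), a log2 difference of 1.29 (SE 0.195, edgeR adjusted p = 0.000253). Tau raised it by 1.22 in Trem2+/+ cells (SE 0.195, edgeR adjusted p = 0.000194). In R47H/+ cells Ccr2 fell by 0.56 with tau (SE 0.193, edgeR adjusted p = 0.0423), and leaving out any 1 of 9 of the 18 libraries ended this call. It was -0.39 without R47H/+ with tau replicate 3 (adjusted p = 0.178) and -0.41 with an offset for gene length (adjusted p = 0.108). The tau effect in R47H/+ cells minus that in Trem2+/+ cells was -1.78, with a 95% interval of -2.36 to -1.19 (SE 0.274, edgeR adjusted p = 0.000852). With tau it averaged 16.9 ± 3.63 CPM in R47H/+ and 23.8 ± 3.10 CPM in Trem2+/+ cells (SD, n = 3 each). These libraries did not overlap, but the difference of -0.49 was not called (SE 0.193, edgeR adjusted p = 0.134). Without both length-shifted libraries it was -0.53 and called (adjusted p = 0.0348). The monocyte markers summed higher with tau in both genotypes, as given above. Of 9 tested, 6 were called higher and 2 lower with tau in each genotype. Of all genes, 27.6% were called with tau in R47H/+ cells and 26.5% in Trem2+/+ cells. Between the genotypes without tau, 1 of these markers was called higher and 3 lower in R47H/+ cells, where 8.22% of all genes were called higher and 6.83% lower. With tau 1 was called higher and 2 lower, where 5.25% of all genes were called higher and 4.24% lower. In the difference of the tau effects 0 were called, where 5.37% of all genes were called. The part of monocytes in the Ccr2 values was not tested. Per length, Ccr2 stood at 0.00215 ± 0.000573 times the summed ligands in R47H/+ cells with tau and 0.0656 ± 0.0179 times in R47H/+ cells without, and at 0.0179 ± 0.00233 times in Trem2+/+ cells with tau and 0.218 ± 0.160 times without (SD, n = 3 each).

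**Figure D4:**
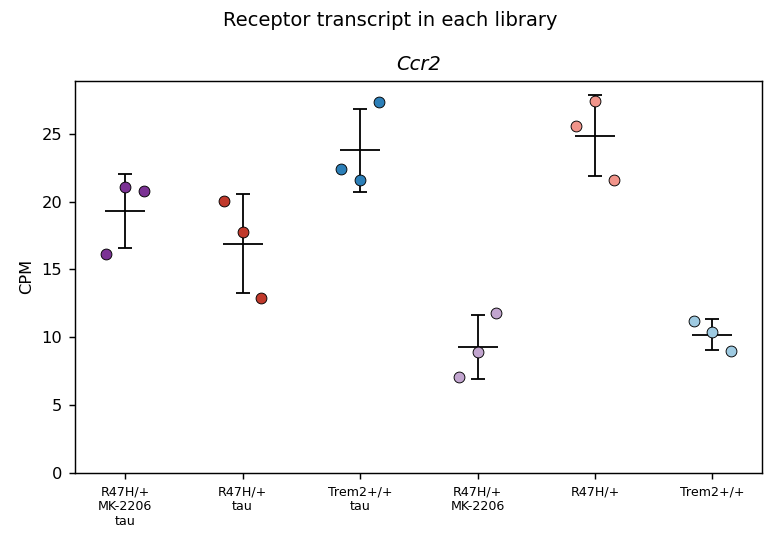
CPM of Ccr2 in each of 18 libraries by group, with the mean and SD of 3 libraries. Ccr2 lies at 12.9 to 20.02 CPM in R47H/+ cells with tau and at 21.6 to 27.4 CPM in R47H/+ cells without, while Trem2+/+ cells lie at 21.6 to 27.3 CPM with tau and at 8.98 to 11.2 CPM without.

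With MK-2206 the ligands were lower in R47H/+ cells, which is what chose them, and the values are given to show where each came to lie. Ccl2 measured 56.5, 72.1 and 65.6 CPM in R47H/+ cells with MK-2206 and tau, against 262.9 to 351.2 CPM in R47H/+ cells with tau and 49.4 to 59.6 CPM in Trem2+/+ cells with tau. Without tau it measured 1.83, 0.972 and 1.24 CPM with MK-2206, against 12.9 to 24.5 CPM in R47H/+ cells and 2.70 to 4.66 CPM in Trem2+/+ cells. The inhibitor libraries with tau overlapped Trem2+/+ cells with tau, and those without tau lay below every Trem2+/+ library. Ccl7 measured 40.6, 44.8 and 39.9 CPM with MK-2206 and tau, against 31.1 to 43.3 CPM in Trem2+/+ cells with tau. It measured 0.228, 0.540 and 0.570 CPM with MK-2206 alone, from 4, 10 and 11 counts, against 0.624 to 2.16 CPM in Trem2+/+ cells. Ccl12 measured 78.6, 95.5 and 91.9 CPM with MK-2206 and tau, above the 44.6 to 62.8 CPM of Trem2+/+ cells with tau. It measured 3.20, 2.59 and 4.61 CPM with MK-2206 alone, within the range of Trem2+/+ cells.

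Tau still went with higher ligand levels under MK-2206. R47H/+ cells with MK-2206 and tau exceeded those with MK-2206 alone by 5.58 for Ccl2, 6.51 for Ccl7 and 4.67 for Ccl12 on the log2 scale. The difference between cells with and without tau was larger with MK-2206 than without it by 1.5 for Ccl2, 1.67 for Ccl7 and 0.49 for Ccl12. Ccr2 measured 16.1, 21.05 and 20.8 CPM with MK-2206 and tau and 7.08, 8.91 and 11.8 CPM with MK-2206 alone. The libraries with MK-2206 and tau overlapped R47H/+ cells with tau, and those with MK-2206 alone lay below every R47H/+ library and overlapped Trem2+/+ cells. The tau difference of Ccr2 was 1.06 in R47H/+ cells with MK-2206, against -0.56 in R47H/+ cells without the inhibitor and 1.22 in Trem2+/+ cells. The comparisons within R47H/+ cells share libraries, and none of these differences was tested.

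**Figure D5:**
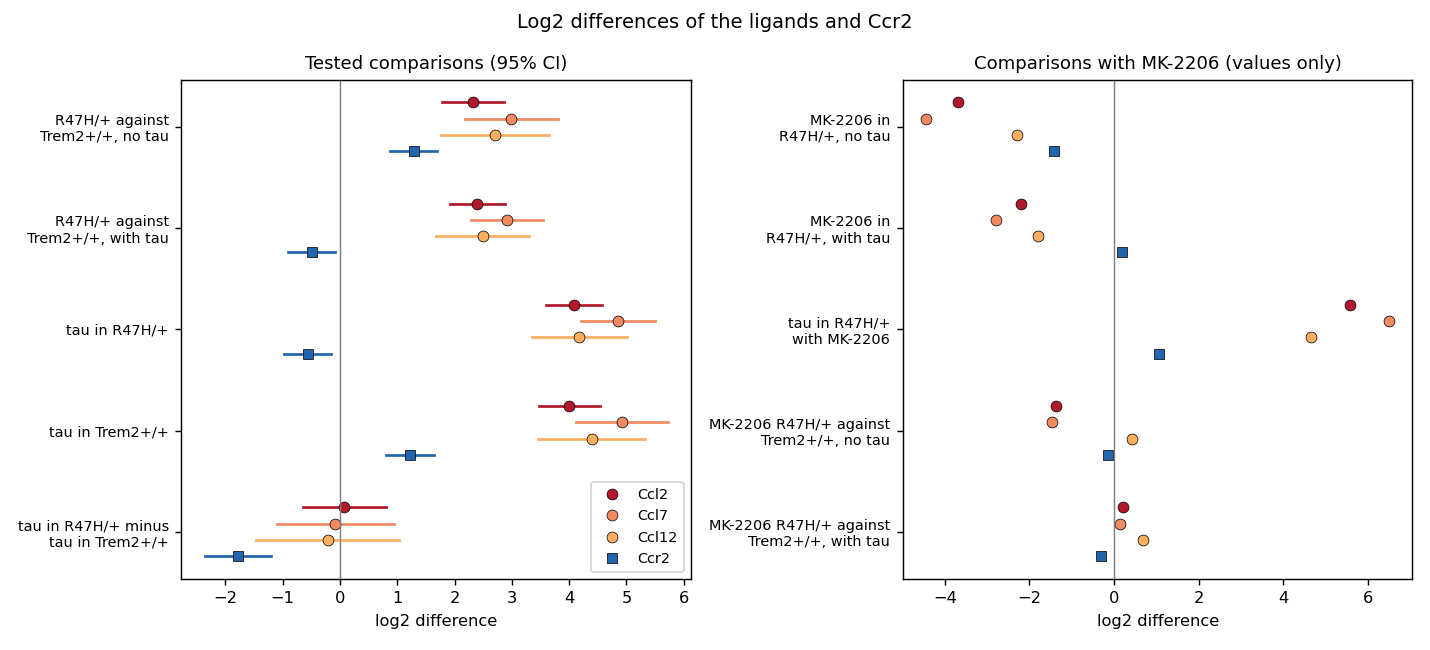
Log2 differences of Ccl2, Ccl7, Ccl12 (circles) and Ccr2 (squares) in the 5 tested comparisons, with 95% intervals, and in the 5 comparisons with MK-2206, as values only. The ligands lie between 2.32 and 4.93 in the first 4 tested comparisons and near 0 in the difference of the tau effects, where Ccr2 lies at -1.78.

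Neighbouring genes were examined on both chromosomes. In the ligand cluster, Ccl8, which encodes another monocyte attractant, averaged 55.6 ± 16 CPM in R47H/+ cells with tau and 6.18 ± 1.14 CPM without (SD, n = 3 each), and 12.6 ± 1.41 CPM in Trem2+/+ cells with tau and 3.94 ± 2.46 CPM without (SD, n = 3 each). It rose with tau by 3.17 in R47H/+ cells (edgeR adjusted p = 1.86e-06) and by 1.71 in Trem2+/+ cells (edgeR adjusted p = 0.000881), and was higher in R47H/+ cells with tau by 2.14 (edgeR adjusted p = 0.000338). Ccl11, between Ccl7 and Ccl12, had 17 counts over all 18 libraries and Ccl1 had 4, so neither was tested. In the receptor cluster, Ccr1 measured 57.8 ± 4.96 CPM in R47H/+ cells with tau and 64.8 ± 7.73 CPM without (SD, n = 3 each), and 32.2 ± 3.55 CPM in Trem2+/+ cells with tau and 77.4 ± 14.3 CPM without (SD, n = 3 each). Ccr3 was tested at 14 to 49 counts per library in these 4 groups, Ccr9 had 151 counts and Xcr1 405 counts in all, and Cxcr6 with 43 counts was not tested. Ccrl2, which encodes a non-signalling chemerin receptor elsewhere on chromosome 9, averaged 98.0 ± 9.68 CPM in R47H/+ cells with tau and 34.6 ± 1.44 CPM without (SD, n = 3 each).

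Other genes of the pathway were counted in 6 lists. Their counts are to be read beside the shares of all genes called, which were 15.1% between the genotypes without tau, 9.50% between the genotypes with tau, 27.6% with tau in R47H/+ cells and 26.5% with tau in Trem2+/+ cells. The median log2 difference of all genes lay between -0.04 and -0.00 in these comparisons. Of 16 other CC chemokine genes, 10 were tested. With tau present 8 were called higher in R47H/+ than in Trem2+/+ cells and 0 lower, with a median log2 difference of 1.41, against -0.00 over all genes. Among them Ccl4 was higher by 1.96, Ccl3 by 1.51 and Ccl24 by 2.09. Without tau 3 were called higher, Ccl5 by 2.88, Ccl24 by 1.96 and Ccl4 by 1.00. Tau raised 5 in R47H/+ cells, with Ccl5 at 5.30 and Ccl9 at 1.31, and in Trem2+/+ cells it raised 3, with Ccl5 at 6.88, and lowered 2, with Ccl6 at -0.93 and Ccl22 at -3.82. Ccl22 had 2 counts in all in Trem2+/+ cells with tau, so its fitted value is uncertain. Of 22 other chemokine receptor genes 10 were tested. Ccrl2 rose with tau by 1.5 in R47H/+ and by 0.86 in Trem2+/+ cells. Cxcr4, the receptor for CXCL12, fell with tau by 1.86 in R47H/+ and by 0.98 in Trem2+/+ cells. Cx3cr1, the fractalkine receptor of resting microglia, fell with tau by 1.23 in R47H/+ cells and was higher in R47H/+ than in Trem2+/+ cells without tau by 0.84. In this list 4 were called higher and 3 lower with tau in R47H/+ cells, and 4 higher and 2 lower with tau in Trem2+/+ cells, with medians of 0.17 and 0.40.

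The 18 listed transcriptional regulators of Ccl2 were all tested. With tau 12 were called higher in R47H/+ cells and 0 lower (median 0.86, against -0.00 over all genes), and 7 higher and 2 lower in Trem2+/+ cells (median 0.33, against -0.04). Nfkbia, the NF-kB inhibitor that NF-kB itself induces, rose by 1.61 with tau in R47H/+ cells, and Relb, an NF-kB subunit, by 1.35. Irf1, an interferon regulatory factor, rose by 1.26 in R47H/+ and by 1.32 in Trem2+/+ cells. Irf7, which drives interferon genes, averaged 3834 ± 637.2 CPM in R47H/+ cells with tau and 1272 ± 120.3 CPM without (SD, n = 3 each), and 2051 ± 258.4 CPM in Trem2+/+ cells with tau and 117.2 ± 10.9 CPM without (SD, n = 3 each). It was higher in R47H/+ than in Trem2+/+ cells by 3.44 without tau and by 0.90 with tau. The AP-1 genes Fos and Junb were lower in R47H/+ than in Trem2+/+ cells without tau, with log2 differences of -1.44 and -0.74. In that comparison 3 regulators were called higher and 6 lower. With tau present 2 were called higher, Irf7 and Irf1 (by 0.50).

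Of 8 genes of chemokine mRNA decay, edgeR called 0 in R47H/+ against Trem2+/+ cells without tau and 0 with tau in Trem2+/+ cells, where 1 each had an unadjusted p under 0.05 and DESeq2 called 1 and 0. Zfp36, which encodes the decay factor tristetraprolin, rose with tau in R47H/+ cells by 0.65, while Zfp36l1 and Rc3h1 fell by 0.87 and 0.62, and the list's median was -0.14. Of 14 genes of the CCR2 signal relay, 5 rose and 1 fell with tau in each genotype, or 42.9% against the 27.6% and 26.5% of all genes, with a median of 0.24 in R47H/+ and 0.29 in Trem2+/+ cells. Rac2, which encodes a small GTPase of blood cells, rose by 1.45 in R47H/+ and by 1.12 in Trem2+/+ cells, and the kinase gene Jak2 by 1.36 in R47H/+ and by 1.41 in Trem2+/+ cells. With tau present edgeR called 0 of the 14 between the genotypes, where 4 had an unadjusted p under 0.05 and DESeq2 called 2. Of 16 genes of the PI3K and Akt kinase module, edgeR called 0 between the genotypes without tau, 0 with tau and 0 in the difference of the tau effects. At an unadjusted p under 0.05 these counts were 2, 3 and 4, and DESeq2 called 0, 0 and 1. In R47H/+ cells with tau 1 of the module rose (Pik3cd, by 0.80) and 3 fell, Akt1 by 0.37, Pik3ca by 0.55 and Gsk3b by 0.50. That is 25% of the module, near the 27.6% of all genes, with a median of -0.23. In Trem2+/+ cells with tau 3 rose and 0 fell, among them Pik3cd by 1.20 and Pik3r1 by 0.55. That is 18.8% of the module, below the 26.5% of all genes, with a median of 0.10.

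Genes with the most similar pattern were ranked by Pearson's r of log2 CPM over the 18 libraries, which share their groups, so the values are descriptions. Ccl2 and Ccl7 had r = 0.992, Ccl7 and Ccl12 0.968 and Ccl2 and Ccl12 0.958, while each ligand with Ccr2 had between 0.604 and 0.659. Once each group's mean was removed, r was 0.504 for Ccl2 and Ccl7, 0.667 for Ccl2 and Ccl12 and 0.800 for Ccl7 and Ccl12, and between -0.113 and 0.255 for a ligand with Ccr2. Outside the set, Cd72, an inhibitory surface lectin, was closest to both Ccl2 (r = 0.989) and Ccl7 (r = 0.983). Cd72 averaged 444.9 ± 60.3 CPM in R47H/+ cells with tau and 178.2 ± 30.6 CPM without (SD, n = 3 each). Ghitm, Slamf9, Glrx and Fam72a followed for Ccl2, and Cd300e, Ghitm, Asns and Slamf9 for Ccl7. Ccl12 was closest to Phgdh, the first enzyme of serine synthesis (r = 0.987), then to Myd88, the adaptor of Toll-like receptors (0.985), Mthfd2, a mitochondrial folate enzyme (0.984), Asns, asparagine synthetase (0.983), and Slamf9 (0.981). Ccr2 had lower values, with Alox15, a lipoxygenase gene, at r = 0.879, followed by Arhgap15, Pip4k2a, Nova1 and Marcks at 0.815 to 0.829. Alox15 averaged 2.98 ± 0.420 CPM in R47H/+ cells with tau and 3.42 ± 0.873 CPM without (SD, n = 3 each), and 3.36 ± 0.377 CPM in Trem2+/+ cells with tau and 1.07 ± 0.401 CPM without (SD, n = 3 each).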

How the data were processed

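RNA sequencing of total RNA was read as paired ends of 150 bases, per the labels. The authors deposited raw counts per gene with no normalization, made with STAR and featureCounts on GRCm38 (mm10), per the submitters' processing notes, which also name DESeq2; versions are not given in the sources used here. The deposited table also gives gene coordinates and gene length. edgeR 4.0.16, which loads limma 3.58.1, was run under R 4.3.3 on all 18 libraries, with a term per group and 12 residual degrees of freedom, after filterByExpr and TMM scaling. The quasi-likelihood F-test was two-sided, with Benjamini-Hochberg adjustment over 13267 genes at a threshold of 0.05; standard errors come from the weighted least squares form of the fit. An exact permutation of 3 against 3 libraries cannot give a p under 0.1, so none was run. Log2 CPM used a prior count of 2. The script was tested on simulated data. Library totals were 16288531 to 20686299 counts, and intervals on counts would cover counting error only.

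The genes and the 6 pathway and 6 marker lists were chosen with earlier results of these data known. Named genes were the 4 genes, Trem2, the chemokine and receptor genes of both clusters, the 5 most similar genes per member (Rik symbols, Gm clones and pseudogenes left out) and up to 4 genes of a list per comparison with the smallest p. Promoter motifs were searched in the 250 bases before the start. The alternatives tried were DESeq2 1.42.0, RLE factors, all genes with a count, each library left out, a replicate block, fits restricted to the groups compared, both length-shifted libraries left out, and per-library offsets from a lowess curve on gene length with span 0.3. No pair of replicates agreed within sampling noise (chi-square per gene 3.47 to 290.2). Columns of other samples numbered 0. Some results of the named-genes rule are not reported here.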

Additional observations from a re-analysis of the deposited data

Results flagged for a closer look

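The response of Ccr2 to tau differed between the genotypes: the log2 tau effect in R47H/+ cells minus that in Trem2+/+ cells was -1.78, from -0.56 in R47H/+ cells and 1.22 in Trem2+/+ cells. Leaving out each library in turn gave -1.92 to -1.61. The difference stayed past the threshold in every alternative run (highest edgeR adjusted p 0.00419, in the fit of the 4 groups alone). Ccr2 was chosen with a difference between R47H/+ cells with and without MK-2206 of -1.42 without tau and 0.19 with tau. That choice favours high values in the R47H/+ libraries without tau, and so a lower tau effect in R47H/+ cells. These runs use the same libraries and do not remove this limit.

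The same difference of tau effects was past the threshold for 15 listed genes of the pathway, where 5.37% of all genes were called. The share called was 30% of 10 tested CC chemokine genes, 40% of 10 receptor genes and 33.3% of 18 regulators. It was 12.5% of 8 mRNA decay genes, 7.14% of 14 relay genes and 0% of 16 PI3K and Akt genes. The 13 genes that the rule for named genes covers are given here, each with its log2 difference of tau effects. This difference was 4.91 for Ccl22, which had 2 counts in all in Trem2+/+ cells with tau, 1.07 for Ccl6 and 0.82 for Ccl9. Among receptors it was 1.10 for Ccr1, 0.64 for Ccrl2, -0.91 for Cx3cr1 and -0.88 for Cxcr4. Among regulators it was 1.69 for Fos, -2.54 for Irf7, 0.98 for Junb and 1.11 for Nfkbia. It was -0.79 for Gng2 and 0.77 for Zfp36.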

How the results depend on the processing

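All calls of the ligands and Ccr2 kept their direction in the settings run. In the tested comparisons 12 values lost the call and 2 gained it, and all others kept their side of the threshold. For Ccr2 with tau in R47H/+ cells, the replicate block gave -0.56 (adjusted p = 0.0646), the gene length offset -0.41 (adjusted p = 0.108), and leaving out each library -0.70 to -0.39. Leaving out Trem2+/+ with tau replicate 1 or 2, R47H/+ replicate 1 or 2, R47H/+ with tau replicate 2 or 3, R47H/+ with MK-2206 replicate 2, or R47H/+ with MK-2206 and tau replicate 2 or 3 ended that call. Ccl12 between genotypes without tau was 2.65 (adjusted p = 0.11) in the compared groups alone. Without both length-shifted libraries, Ccr2 between genotypes with tau was -0.53 (adjusted p = 0.0348) and the Ccl12 difference of tau effects was -1.29 (adjusted p = 0.0371), both newly called, and the Ccl12 difference ran from -0.99 to 0.29 over libraries left out. The cause of these changes was not tested.

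Counts of all genes called moved over 1.5 times in 19 cases, from 11 settings. In the compared groups alone they were 474 between genotypes without tau, 1311 for tau in Trem2+/+ cells and 360 for the difference of tau effects, which DESeq2 gave as 1148 and the length offset as 1071. Without both length-shifted libraries the 5 counts were 3907, 5589, 5773, 3141 and 1610, in the order genotypes without tau, tau in Trem2+/+, tau in R47H/+, genotypes with tau and difference of tau effects. Single libraries left out moved the genotype count with tau to between 629 and 3469, tau in R47H/+ to 5856, the genotype count without tau to 1295 and the difference of tau effects to between 471 and 1537. Deviations of same-numbered replicates from their group means correlated at over 0.1 in 4 of 45 pairs, from -0.63 to 0.49. Both extremes lay between Trem2+/+ and R47H/+ with tau, the groups with the length-shifted libraries. With 3 replicates in each group, these values cannot decide whether same-numbered libraries share a culture or batch. Besides that of Ccr2 with tau in R47H/+ cells, the replicate block ended no call of the 4 genes.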
